A study of Mus musculus with 12 samples.

Results

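Wnt pathway genes are described here in the hearts of mice in which the activity of CELF proteins, RNA-binding regulators of alternative splicing, is repressed in heart muscle. The members are 41 genes named by symbol, and every probe of the array that carries 1 of these symbols was taken, with no use of its measured value. Of the 41 genes, 40 were measured, by 77 probe IDs that make up 47 distinct features among 30854 on the array (probe IDs that share the same value on every array count as 1 feature). Dact3 was not analysed here. The genes comprised 7 ligands, 12 receptors and co-receptors, 9 secreted or membrane-bound antagonists, 6 intracellular parts of the pathway, 3 transcription factors and 4 feedback regulators, of which 3 were measured.

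Total RNA of whole hearts from 3-week-old FVB/N females was hybridized to Illumina mouse expression BeadChips, 1 heart per array. MHC-CELF∆ mice carry a dominant negative CELF transgene, whose product stays in the nucleus, behind the α-myosin heavy chain promoter, so heart muscle cells are its target and the other cells of the heart are not. There were 3 hearts of the MHC-CELF∆-10 line, called the severe line, 3 of the MHC-CELF∆-574 line, called the mild line, and 3 wild type littermates of each line, and transgenic animals of both lines are hemizygous. Each degree of severity is represented by 1 transgenic line, so a trait of that line and an effect of the transgene cannot be told apart. The comparisons asked how the transcripts of the pathway differed between each line and the 6 wild type hearts, and between the lines. Both lines were set against the same wild type arrays, so these comparisons share their controls.

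Wnt ligands are secreted glycoproteins that bind Frizzled receptors together with the co-receptors Lrp5 and Lrp6, or act through Ror and Ryk receptors. In the canonical branch, ligand binding recruits Dishevelled and Axin to the membrane, the destruction complex of Axin, Apc and Gsk3b stops marking β-catenin for degradation, and β-catenin enters the nucleus to activate genes with the Tcf and Lef factors. Canonical and non-canonical Wnt signals guide formation of the heart field, chambers and outflow tract in the embryo, are quiet in the healthy postnatal heart, and are known to be engaged again after injury and during remodeling.

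The signals are given as log2 of the background-corrected and quantile-normalized intensity. The labels were checked with Celf4, of which 1 of 4 features responds to the transgene. It read 5.79 to 6.14 in the wild type hearts, 11.68 to 11.74 in mild line hearts and 11.25 to 11.90 in severe line hearts, so every array matched its genotype and the lines overlapped. Raw median intensities were 116 to 119 on the severe line arrays and 103 to 112 on the others, and the part of this difference in the results below was not tested beyond a change of scaling. The files hold no detection p-values. As a stand-in, chosen after the values were seen, the level under which 95% of 1082 olfactory receptor features lay in the wild type hearts was taken as background. It was 6.33, and 43.8% of all features exceeded it. By their wild type mean, 29 of the 47 member features did, for 26 genes, and the other 18 features lay at the level of the olfactory receptors, which are taken to be silent in heart. A feature is called at background below by its wild type mean alone. For 14 genes, every feature lay there in the wild type: Wnt2b, Wnt4, Wnt9b, Wnt11, Fzd1, Ror1, Dkk1, Dkk2, Sfrp4, Sfrp5, Frzb, Dvl2, Lef1 and Dact1. Of these, Frzb and Sfrp5 had a mild line mean above that level (both 6.42), and Fzd1, Ror1 and Dkk1 a severe line mean above it (6.39, 6.37 and 6.35). Since RNA came from the whole organ, fewer cells of a type and less RNA per cell cannot be told apart.

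Upstream sequences are shown for 2 members. Wif1 was the member whose signal passed the test in both lines, and Axin2 is the gene most often used as a readout of β-catenin activity. The 250 bases before the start site are given 5′ to 3′ on the plus strand, from RefSeq on GRCm38.p6, at chr10:121033754-121034003 for Wif1 and chr11:108920099-108920348 for Axin2.
Wif1: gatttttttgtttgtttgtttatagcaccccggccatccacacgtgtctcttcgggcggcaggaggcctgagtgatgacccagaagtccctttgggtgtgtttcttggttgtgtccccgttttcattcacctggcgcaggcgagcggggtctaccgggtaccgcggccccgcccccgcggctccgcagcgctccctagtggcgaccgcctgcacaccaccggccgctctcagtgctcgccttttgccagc
Axin2: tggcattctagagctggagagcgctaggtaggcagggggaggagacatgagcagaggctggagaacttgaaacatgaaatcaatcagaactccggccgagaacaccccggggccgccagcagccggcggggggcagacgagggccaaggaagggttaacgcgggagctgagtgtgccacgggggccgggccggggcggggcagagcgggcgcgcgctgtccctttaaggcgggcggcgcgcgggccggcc
Both strands were searched for the core that Tcf and Lef factors bind (CTTTGA, which reads TCAAAG on the other strand) and for the CArG box bound by serum response factor. Neither motif was in either window, so no letters are in capitals. The Tcf and Lef core was in 4544 of 32851 upstream windows of this length in the RefSeq table (13.8%), and in 8 of the 38 windows of members (21.1%). Those 8 windows belonged to 8 of the 30 member genes that matched the table by symbol, Wnt5b, Wnt11, Fzd1, Ror1, Dkk1, Frzb, Gsk3b and Lef1. The CArG box was in 482 windows (1.47%) and in that of 1 member, Lef1.

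Few members passed the test between transgenic and wild type hearts, and no member's estimated difference in the main fit was as large as 1.5-fold. At an adjusted p under 0.05, 1 of 47 member features (2.13%) changed in the mild line (Wif1, lower). Of all features 3.55% did, 1.62% higher and 1.93% lower. In the severe line 3 of 47 (6.38%) changed (Wif1 lower, Fzd2 and Apcdd1 higher). Of all features 3.3% did there, 1.75% higher and 1.56% lower. No member met the threshold of the study, which asks for a 2-fold difference together with an adjusted p under 0.05 or an unadjusted p under 0.001 and which 0.269% of all features met in mild line hearts and 0.136% in severe line hearts. At an unadjusted p under 0.05 the member counts were 9 (19.1%) in mild line hearts and 10 (21.3%) in severe line hearts. These shares were higher than those of all features, 12.3% and 13.5%, which were not matched for signal. Of the members 29 of 47 features exceeded the background level, against 43.8% of all features. In a fit of the 15427 features above the median signal, 2838 (mild line) and 3115 (severe line) had such a p. The median log2 difference of the member features was 0.01 in mild line hearts and 0.05 in severe line hearts. Over all features it was 1.8e-05 and -4.6e-04.

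The intervals were narrow enough to bound the other changes on the scale of the normalized signal. The background offset of 50 compresses the differences of dim features. A transcript measured by such a feature can therefore change by more than its interval shows. The half-width of the 95% interval of a member's log2 difference ran from 0.13 to 0.35, with a median of 0.17. Of the 29 member features above the background level, 28 had an interval that stayed within 1.5-fold in both directions and in both lines. The exception was Wif1. In the plot of log2 differences for all 47 features, most intervals of both lines cross 0.

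**Figure D1:**
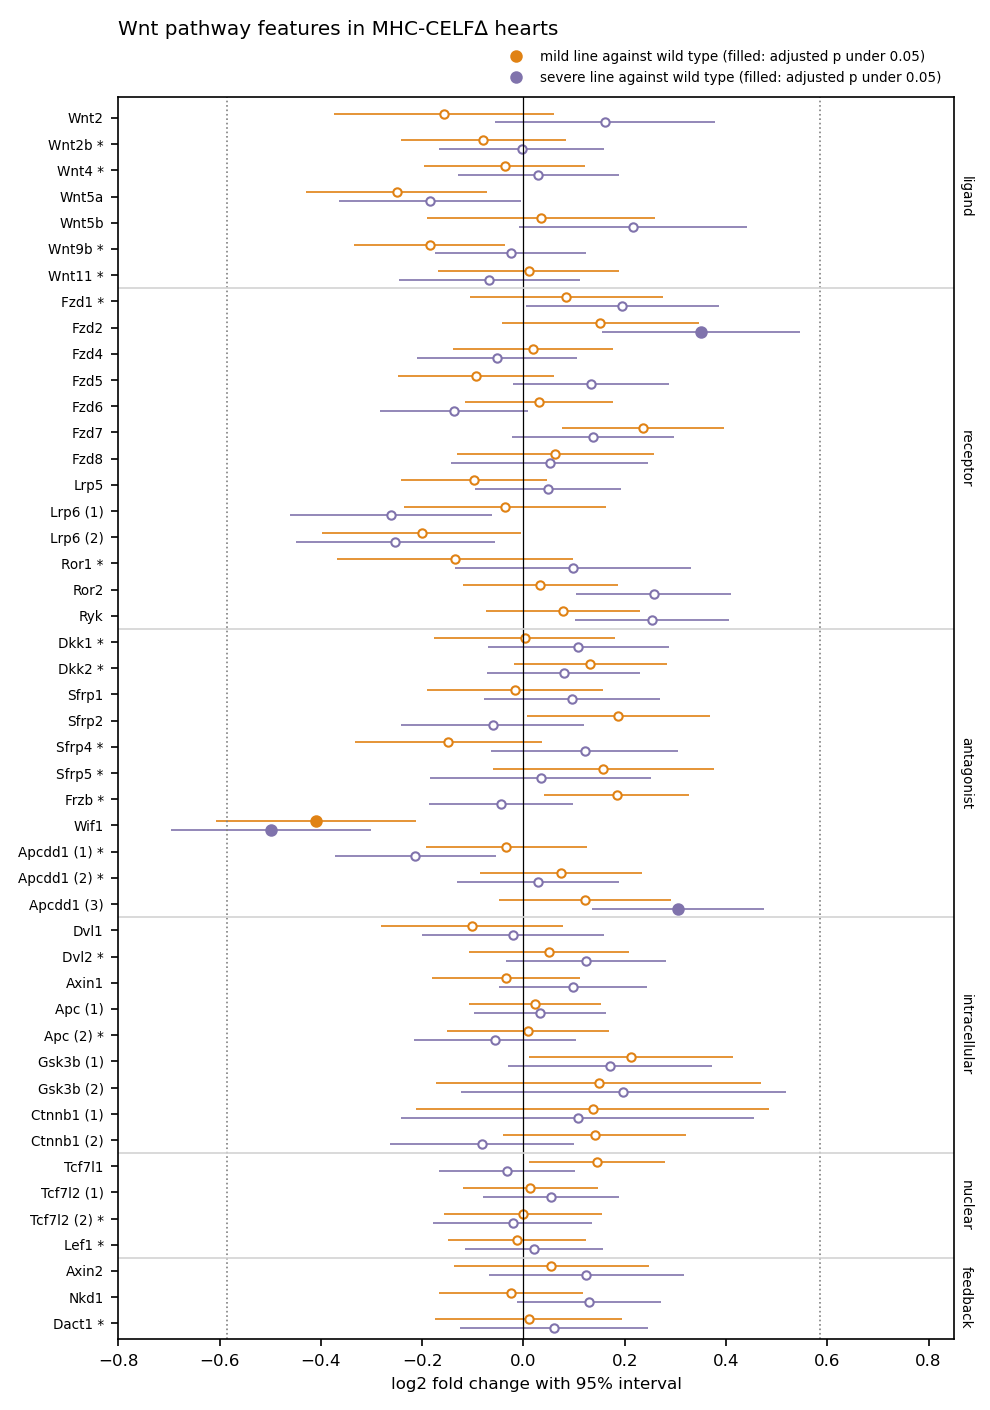
Log2 fold change of each of the 47 member features in the mild line (orange) and the severe line (purple) against 6 wild type hearts, with 95% intervals from the limma fit, grouped by role. Filled points passed an adjusted p under 0.05, dotted lines mark 1.5-fold, and an asterisk marks a feature not above the background level in the wild type. The filled points are Wif1 in both lines and Fzd2 and Apcdd1 in the severe line.

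Wif1 was lower in both lines. It encodes Wnt inhibitory factor, a secreted protein that binds Wnt ligands and keeps them from their receptors. Its log2 signal was 7.80, 7.95 and 8.02 in the wild type hearts from mild line litters and 7.78, 7.61 and 7.52 in those from severe line litters. It was 7.43, 7.42 and 7.27 in mild line hearts and 7.31, 7.31 and 7.22 in severe line hearts. All 3 arrays of each line lay below all 6 wild type arrays, which held for 3.92% of all features in mild line hearts and 3.63% in severe line hearts. Wif1 fell by 0.41 ± 0.094 (SE) in mild line hearts on the log2 scale, to 0.752 of the wild type level (adjusted p = 0.0164), and by 0.50 ± 0.094 in severe line hearts, to 0.707 (adjusted p = 0.00416). The lines differed from each other by 0.09, with an interval of -0.14 to 0.32 (adjusted p = 0.818). The littermates of the mild line were 0.28 higher than those of the severe line, a difference that did not pass (adjusted p = 0.248), and against its own littermates the difference was -0.55 in mild line hearts and -0.36 in severe line hearts. Over 23 alternatives the mild line value ran from -0.55 to -0.35 with adjusted p from 9.0e-04 to 0.121. The call was lost without mild line replicate 2 (adjusted p = 0.0560), without mild line replicate 3 (0.121) and with a smaller background offset (0.0599). In the severe line it was lost only under the replicate block (-0.36, adjusted p = 0.0791), within a range of -0.61 to -0.36 and adjusted p from 0.00104.

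Apcdd1, a membrane glycoprotein that binds Wnt and its co-receptor and dampens the signal, was measured by 3 features, and only the brightest changed. That feature read 6.88, 6.97 and 6.83 in the wild type hearts from mild line litters, and 6.99, 6.61 and 6.79 in those from severe line litters. It read 6.86, 7.02 and 7.02 in mild line hearts, and 7.21, 7.16 and 7.08 in severe line hearts. The severe line arrays all lay above the wild type arrays, as for 3.59% of all features, while those of the mild line overlapped them. The difference was 0.31 ± 0.081 (SE) in the severe line (1.24-fold, adjusted p = 0.0440) and 0.12 in mild line hearts (adjusted p = 0.620), and 0.18 between the lines, higher in the severe line, with an adjusted p of 0.448. The other features lay at the background level and gave -0.21 (adjusted p = 0.168) and 0.03 (adjusted p = 0.926) in the severe line, and the average of the 3 gave 0.04 (adjusted p = 0.867). The severe line call was lost under 16 of 24 alternatives, whose adjusted p ran from 0.0280 to 0.867, median scaling (0.129) among them. It did not pass without severe line replicate 1 (0.228), 2 (0.127) or 3 (0.0770), without wild type replicate 2 (0.0616) or 3 (0.0725) of the severe line's litters, without wild type replicate 1 (0.0619) or 3 (0.0751) of the mild line's litters, or without mild line replicate 2 (0.0581) or 3 (0.0557).

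None of the 7 other antagonists passed the test. The secreted Frizzled-related proteins bind Wnt ligands, and Sfrp1 had a wild type mean of 7.68 ± 0.15 (SD, n = 6) and differed by -0.02 in mild line hearts and 0.10 in severe line hearts (adjusted p = 0.970 and 0.701). Sfrp2 was at 6.48 ± 0.10 and differed by 0.19 and -0.06 (adjusted p = 0.377 and 0.849). The remaining antagonists were not above the background level in the wild type. Frzb, of the same family, was at 6.24 ± 0.05 in the wild type. It read 6.36, 6.58 and 6.32 in the mild line, all 3 above the wild type arrays as for 3.6% of all features, with a difference of 0.18 (adjusted p = 0.203), and -0.04 in the severe line. Sfrp4, at 6.01 ± 0.14, differed by -0.15 and 0.12, and Sfrp5, at 6.26 ± 0.15, by 0.16 and 0.03. The Dickkopf proteins block the Lrp5 and Lrp6 co-receptors. Dkk1, at 6.24 ± 0.10, differed by 0.0023 and 0.11, and Dkk2, at 5.88 ± 0.11, by 0.13 and 0.08.

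Among receptors, Fzd2 was the member that rose, in the severe line. It is a Frizzled receptor that is used by canonical and non-canonical ligands. Its signal was 6.62, 6.78 and 6.82 in the wild type hearts from mild line litters and 7.10, 6.84 and 6.90 in those from severe line litters. It was 6.87, 7.11 and 7.02 in mild line hearts and 7.22, 7.33 and 7.04 in severe line hearts. The severe line and wild type ranges overlapped through 1 wild type array at 7.10 and 1 severe line array at 7.04. The difference was 0.35 ± 0.093 (SE) in the severe line (1.28-fold, adjusted p = 0.0440) and 0.15 in mild line hearts (adjusted p = 0.576). Between the lines the difference was -0.20 (mild minus severe) with an interval of -0.42 to 0.03 (adjusted p = 0.481). The call was lost under 14 of 23 alternatives, over which the value ran from 0.25 to 0.48 and the adjusted p from 0.0115 to 0.282, and against its own littermates the severe line difference was 0.25 (adjusted p = 0.268). With median scaling the adjusted p was 0.0765. It did not pass without severe line replicate 1 (0.185) or 2 (0.222), without wild type replicate 2 (0.0620) or 3 (0.0529) of the severe line's litters, without wild type replicate 1 (0.0808), 2 (0.0905) or 3 (0.0762) of the mild line's litters, or without mild line replicate 2 (0.0515) or 3 (0.0585).

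The non-canonical receptors Ryk and Ror2 lay just outside the threshold in the severe line. Ryk, a receptor whose kinase domain is inactive, read 9.60, 9.65 and 9.62 in the wild type hearts from mild line litters, 9.56, 9.54 and 9.67 in those from severe line litters, 9.67, 9.75 and 9.63 in mild line hearts and 10.04, 9.71 and 9.83 in severe line hearts. The severe line arrays were all above the wild type arrays, as for 3.59% of all features. The Ryk difference was 0.25 (adjusted p = 0.0658), against 0.08 in the mild line (adjusted p = 0.770). Ror2, a receptor tyrosine kinase for Wnt5a, read 6.68, 6.68 and 6.63 in the wild type hearts from mild line litters, 6.71, 6.68 and 6.93 in those from severe line litters, 6.81, 6.77 and 6.68 in mild line hearts and 7.06, 6.90 and 6.96 in severe line hearts. Severe line replicate 2 lay below the highest wild type array, and the difference was 0.26 (adjusted p = 0.0653), against 0.03 in the mild line (adjusted p = 0.923). Over 23 alternatives the severe line adjusted p ran from 0.0281 to 0.548 for Ryk, which passed in 5, and from 0.0150 to 0.374 for Ror2, which passed in 4. Ryk passed without severe line replicate 2 (0.0281) and Ror2 without wild type replicate 3 of the severe line's litters (0.0150). Ror1, at the background level with 6.27 ± 0.11, differed by -0.14 and 0.10.

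The other Frizzled receptors and the co-receptors did not pass in either line. Fzd7, which takes part in mesoderm and heart formation in the embryo, had a wild type mean of 6.82 ± 0.12 and differed by 0.24 in the mild line (adjusted p = 0.122) and 0.14 in the severe line (adjusted p = 0.471). Fzd4, which also responds to Norrin in blood vessels, was at 6.52 ± 0.12 and differed by 0.02 and -0.05. Fzd5, at 6.71 ± 0.05, differed by -0.09 and 0.13, Fzd6, at 7.42 ± 0.06, by 0.03 and -0.14, and Fzd8, at 6.42 ± 0.19, by 0.06 and 0.05. Fzd1, not above the background level at 6.19 ± 0.14, differed by 0.08 and 0.20. Lrp5, at 6.41 ± 0.08, differed by -0.10 and 0.05. Both features of Lrp6 were lower in the mean of the severe line, by log2 differences of -0.26 (adjusted p = 0.182) and -0.25 (adjusted p = 0.194), against -0.04 and -0.20 in the mild line, with 1 severe line array inside the wild type range for each feature. The brighter of these had a wild type mean of 6.94 ± 0.15.

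No ligand passed the test. Wnt5a, the best known non-canonical ligand, was the ligand with the lowest p in both lines. It read 6.87, 7.00 and 6.98 in the wild type hearts from mild line litters and 7.07, 7.10 and 7.24 in those from severe line litters. It read 6.69, 6.80 and 6.87 in mild line hearts and 6.91, 6.68 and 6.98 in severe line hearts, so both lines reached into the wild type range, with differences of -0.25 (adjusted p = 0.152) and -0.18 (adjusted p = 0.350). Wnt5b, its closest relative, was at 6.92 ± 0.22 and differed by 0.03 and 0.22 (adjusted p = 0.946 and 0.400). Wnt2, a canonical ligand of the developing heart and vessels, was at 6.47 ± 0.18 and differed by -0.16 and 0.16 (adjusted p = 0.619 and 0.565). The remaining ligands were not above the background level. Wnt11, a non-canonical ligand of outflow tract formation, was at 6.10 ± 0.16 and differed by 0.01 and -0.07, Wnt9b, at 6.31 ± 0.06, by -0.19 (adjusted p = 0.235) and -0.03, Wnt4, at 6.21 ± 0.10, by -0.04 and 0.03, and Wnt2b, at 6.12 ± 0.14, by -0.08 and -0.0031.

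The intracellular parts of the pathway did not pass in either line with all arrays. Ctnnb1, which encodes β-catenin and serves cell junctions as well as Wnt signaling, read 10.26 to 10.60 in the wild type hearts, 10.48, 10.49 and 10.73 in mild line hearts and 10.21, 10.30 and 10.51 in severe line hearts by its brighter feature. The 3 ranges overlapped, with differences of 0.14 and -0.08 (adjusted p = 0.579 and 0.773). Its other feature gave 0.14 and 0.11 (adjusted p = 0.841 and 0.864) with the widest interval of the members, and the wild type arrays alone spread from 6.55 to 7.40. Gsk3b, the kinase of the destruction complex, had a wild type mean of 9.90 ± 0.16 by its brighter feature. It read 10.07, 10.15 and 10.11 in mild line hearts and 10.29, 9.89 and 10.03 in severe line hearts, against 9.74 to 10.15 in the wild type, with differences of 0.21 and 0.17 (adjusted p = 0.367 and 0.482). Its other feature gave 0.15 and 0.20 (adjusted p = 0.802 and 0.658), and passed in the severe line without severe line replicate 2 (0.47, adjusted p = 0.0450), which read 7.32, against 8.27 and 8.03 for the other 2. Axin1, the scaffold of the complex, was at 7.80 ± 0.04 and differed by -0.03 and 0.10, and Apc, which helps hold the complex together, was at 6.42 ± 0.06 by its brighter feature and differed by 0.02 and 0.03. The other Apc feature, at the background level, gave 0.01 and -0.06. Dvl1, a Dishevelled protein that passes the signal on from the receptors, was at 7.94 ± 0.15 and differed by -0.10 and -0.02, and Dvl2, not above the background level at 5.99 ± 0.12, by 0.05 and 0.12.

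No transcription factor or feedback gene passed the test either. Axin2, which β-catenin induces and which then restrains the pathway, read 7.10, 7.03 and 6.94 in the wild type hearts from mild line litters and 6.92, 6.97 and 7.00 in those from severe line litters. It read 7.30, 6.93 and 6.92 in mild line hearts and 6.91, 7.15 and 7.30 in severe line hearts. In each line some arrays were above the wild type range and others below or inside it, and the differences were 0.05 with an interval of -0.14 to 0.25 (adjusted p = 0.892) and 0.12 with an interval of -0.07 to 0.32 (adjusted p = 0.634). Nkd1, a Dishevelled-binding inhibitor that the pathway also induces, was at 6.39 ± 0.07 and differed by -0.02 and 0.13, and Dact1, another Dishevelled-binding protein, at the background level with 6.25 ± 0.15, differed by 0.01 and 0.06. Tcf7l1, which acts mostly as a repressor, read 8.13, 8.02 and 7.96 in the mild line. All 3 lay above the wild type arrays, as for 3.6% of all features, the lowest of them by less than the rounding. The Tcf7l1 difference was 0.15 (adjusted p = 0.340), against -0.03 in the severe line. Tcf7l2, the factor that partners β-catenin in many adult tissues, was at 6.67 ± 0.06 by its brighter feature and differed by 0.01 and 0.05, and its other feature, at the background level, by -5.7e-04 and -0.02. Lef1, at the background level with 6.07 ± 0.05, differed by -0.01 and 0.02.

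Between the mild and the severe line, 0 of 47 member features passed in limma, where 1.37% of all features did. An unadjusted p under 0.05 was found for 9 members (19.1%), against 12.4% of all features, which were not matched for signal. In a fit of the 15427 features above the median signal, 2528 had such a p. Among the members Frzb had the lowest adjusted p, 0.197, with a difference of 0.23 (mild minus severe), and its wild type and severe line means were at background, with a mild line mean of 6.42. Between the littermates of the lines 0 of 47 passed, where 0.0875% of all features did. An unadjusted p under 0.05 was found for 4 members (8.51%), against 9.96% of all features.

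A wider list of 75 further pathway genes was examined beside the members, and 73 of them were measured, by 89 features. In the mild line 1 rose (Kremen1) and 1 fell (Dkk3), 2.25% of the 89 features, against 3.55% of all features. In the severe line 4 rose (Kremen1, Nkd2, Wls and Prickle2) and none fell, 4.49%, against 3.3% of all features (1.75% higher and 1.56% lower). The median log2 difference of the list was -0.0030 in mild line hearts and 0.0097 in severe line hearts.

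Dkk3 was lower in the mild line alone of the 2 lines. It encodes a secreted, divergent Dickkopf protein whose action on Wnt signaling is less settled than that of its relatives. Its signal was 10.39, 10.35 and 10.32 in the wild type hearts from mild line litters and 10.03, 10.29 and 10.12 in those from severe line litters. It was 9.21, 9.31 and 9.00 in mild line hearts and 9.93, 10.10 and 10.38 in severe line hearts. The mild line arrays lay below every other array, whereas severe line and wild type arrays overlapped. Mild line arrays lay below all wild type arrays for 3.92% of all features. Dkk3 fell by 1.08 ± 0.10 (SE) in mild line hearts on the log2 scale, to 0.474 of the wild type level (adjusted p = 1.8e-06), and met the threshold of the study. In the severe line the difference was -0.11 (adjusted p = 0.725). The direct comparison of the lines gave -0.97 with an interval of -1.21 to -0.72 (adjusted p = 1.3e-04), and both the mild line call and this call held under all 23 alternatives, with adjusted p up to 9.7e-05 and 0.0109. Atrial markers moved in the same line. Of 4 atrial genes, Myl7, Myl4 and Sln fell in the mild line, with log2 differences of -1.84, -0.71 and -1.85, while Nppa differed by 0.05, and the log2 summed signal of the 4 was 15.75 to 15.89 in the mild line, 16.07 to 16.13 in the severe line and 16.09 to 16.23 in the wild type. Their part in the Dkk3 result was not tested.

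Kremen1, a receptor for Dickkopf proteins that helps remove Lrp6 from the cell surface, rose in both lines. Its brightest feature read 8.25, 8.46 and 8.32 in the wild type hearts from mild line litters and 8.72, 8.05 and 8.31 in those from severe line litters. It read 9.13, 9.15 and 9.14 in mild line hearts and 8.92, 8.95 and 8.92 in severe line hearts, so all transgenic arrays lay above all wild type arrays. Mild line arrays lay so for 3.6% of all features and severe line arrays for 3.59%. The rise of Kremen1 was 0.79 ± 0.10 (SE) in the mild line (1.73-fold, adjusted p = 6.0e-05) and 0.58 ± 0.10 in the severe line (1.49-fold, adjusted p = 0.00206). The difference between the lines was 0.21 with an interval of -0.03 to 0.46 (adjusted p = 0.493). The other 2 features lay at the background level in the wild type and gave differences of 0.22 and 0.05 (mild line) and of 0.12 and -0.15 (severe line), none of which passed. The brighter of these had means of 6.53 in mild line hearts and 6.43 in severe line hearts, and its mild line arrays, at 6.48, 6.55 and 6.54, lay above all wild type arrays, of which the highest was at 6.46. With the 3 averaged, the values were 0.35 and 0.18, and the severe line no longer passed (adjusted p = 0.0865, with 8.3e-05 as the lowest over 24 alternatives), while the mild line did in all 24 (adjusted p up to 0.00162).

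The other 3 genes passed in the severe line and not in the mild line, and in none did the direct comparison of the lines pass. Nkd2, a relative of Nkd1 that binds Dishevelled, read 6.81, 6.74 and 7.02 in the wild type hearts from mild line litters and 6.70, 6.91 and 7.03 in those from severe line litters. It read 7.04, 7.09 and 7.21 in mild line hearts and 7.51, 7.09 and 7.68 in severe line hearts. Both lines lay above the wild type range. The Nkd2 differences were 0.56 ± 0.11 (SE) in the severe line (1.47-fold, adjusted p = 0.00494) and 0.25 in mild line hearts (adjusted p = 0.335), with -0.31 between the lines (adjusted p = 0.290). The severe line call was lost only without severe line replicate 3 (0.43, adjusted p = 0.0562, against 2.7e-04 at the lowest of 23 alternatives), and the difference between the lines passed only without severe line replicate 2 (-0.48, adjusted p = 0.0431, against 0.817 at the highest).

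Wls, the membrane protein that carries Wnt ligands to the cell surface for secretion, read 9.13, 9.11 and 8.91 in the wild type hearts from mild line litters and 9.26, 9.10 and 8.84 in those from severe line litters. It read 9.07, 9.20 and 9.28 in mild line hearts and 9.42, 9.41 and 9.47 in severe line hearts. The severe line lay above all wild type arrays, as for 3.59% of all features, and the mild line overlapped the wild type. The differences were 0.37 ± 0.085 (SE) in the severe line (adjusted p = 0.0167) and 0.12 in mild line hearts (adjusted p = 0.643). A dimmer feature of Wls gave 0.30 in the severe line (adjusted p = 0.0506) and another 0.03 (adjusted p = 0.938). Over 24 alternatives the value ran from 0.23 to 0.41 and the adjusted p from 0.00617 to 0.331, and the call was lost under 7, among them median scaling (0.331), without severe line replicate 1 (0.0744) and without severe line replicate 3 (0.0844).

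Prickle2, a protein of the planar cell polarity branch, read 8.54, 8.41 and 8.51 in the wild type hearts from mild line litters and 8.65, 8.70 and 8.68 in those from severe line litters. It read 8.66, 8.71 and 8.64 in mild line hearts and 8.98, 8.77 and 8.86 in severe line hearts. The severe line was above all other arrays, and the littermates of the 2 lines did not overlap each other. Severe line arrays lay above all wild type arrays for 3.59% of all features. The difference was 0.29 ± 0.075 (SE) in the severe line (adjusted p = 0.0398) and 0.09 in mild line hearts (adjusted p = 0.718), and against its own littermates the severe line differed by 0.19 (adjusted p = 0.262). A dimmer feature gave -0.16 in the severe line (adjusted p = 0.352), and the average of the pair gave 0.07 (adjusted p = 0.746). The call was lost under 15 of 24 alternatives, with adjusted p from 0.0243 to 0.746, among them without severe line replicate 1 (0.262) or 3 (0.114), without wild type replicate 1 (0.0729), 2 (0.0840) or 3 (0.0783) of the mild line's litters, and without mild line replicate 1 (0.0519), 2 (0.0534) or 3 (0.0530).

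**Figure D2:**
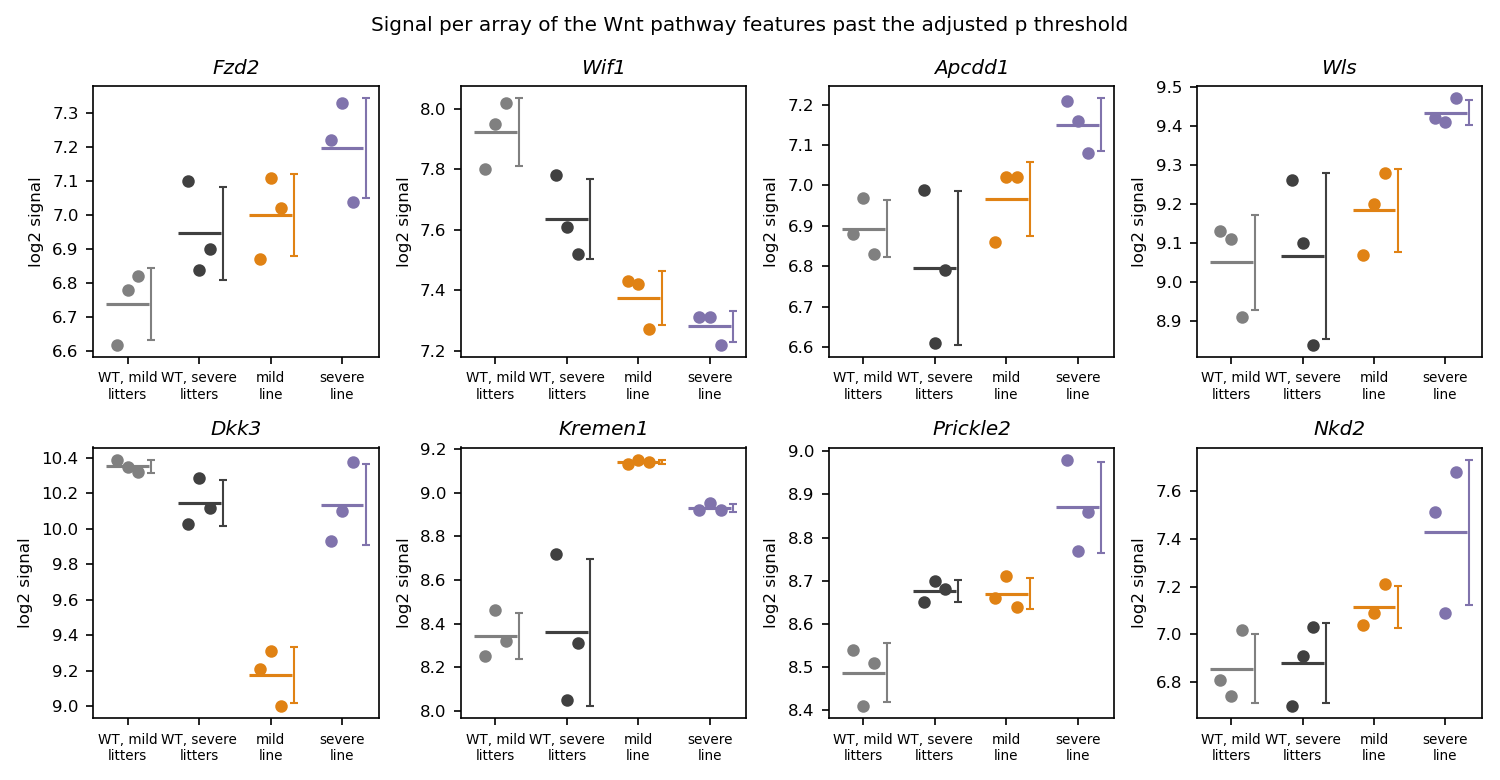
Log2 signal on each of the 12 arrays for the 3 member features and the 5 further Wnt pathway features that passed an adjusted p under 0.05 in either line. Points are single hearts, horizontal bars are group means and whiskers are 1 SD (n = 3), the vertical axes differ between panels and do not start at 0, and the mild line points of Dkk3 sit at 9.00 to 9.31 against 9.93 to 10.39 elsewhere.

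**Figure D3:**
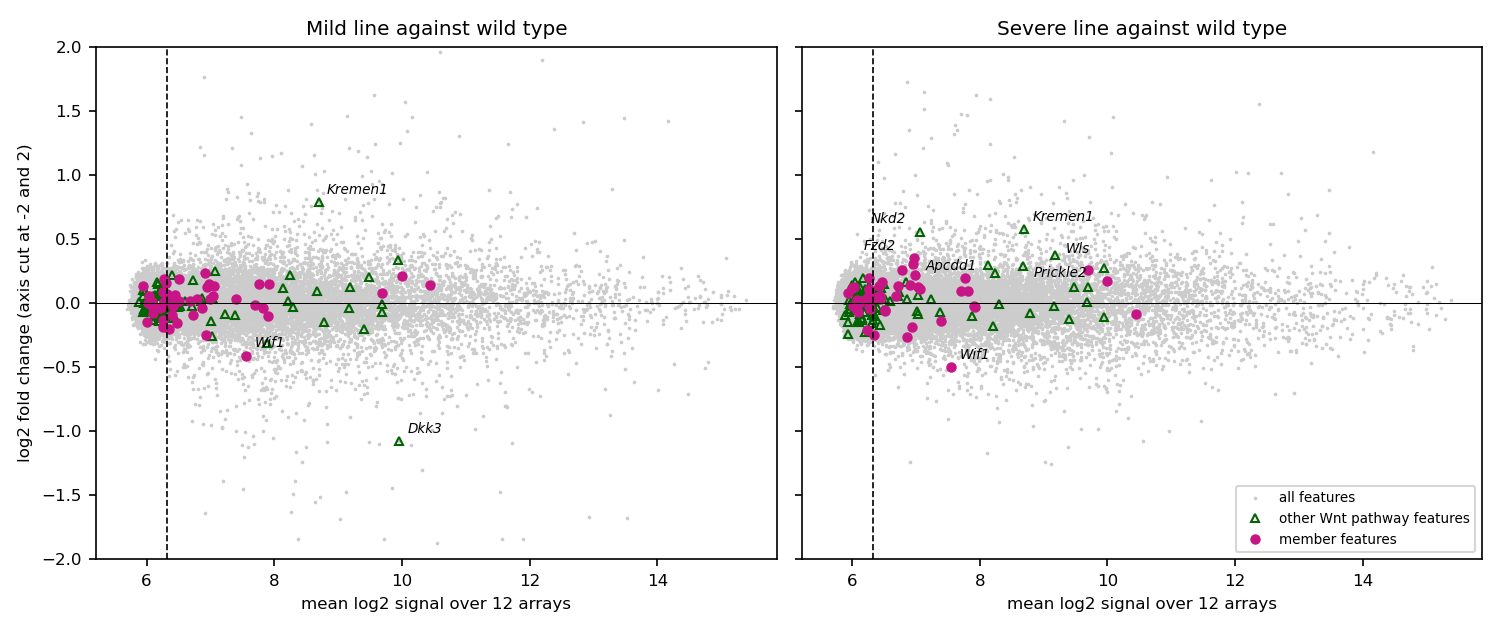
Log2 fold change against mean log2 signal over 12 arrays for all features (grey), the 47 member features (filled circles) and the 89 features of further Wnt pathway genes (triangles), in the mild line (left) and the severe line (right). Features past an adjusted p under 0.05 are named, the dashed line is the background level of 6.33, 12 mild line and 8 severe line features lie beyond the axis, and the members lie within the grey cloud of features of like signal.

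Single markers of smooth muscle and fibroblasts rose in the severe line, in which the members and further genes that passed were mostly higher. Of 6 smooth muscle genes measured, Acta2 and Tagln rose in the severe line (0.61 and 0.70), and Acta2 fell in the mild line (-0.56). The other 4 did not pass, with severe line differences of 0.04 for Myh11, -0.03 for Cnn1, 0.05 for Pdgfrb and -0.0022 for Rgs5. The wild type mean of Acta2 was 12.58, so it made up most of the summed signal. The log2 summed signal of the 6 was 13.23 to 13.71 in the severe line, 12.64 to 12.78 in the mild line and 12.74 to 13.24 in the wild type, and Tagln and Cnn1 were at the background level in the wild type. Of 8 fibroblast genes, Col1a1 alone passed, in the severe line (0.48), but all 8 had a higher mean than the wild type in both lines. Severe line differences of the others were 0.34 for Lum, 0.24 for Col1a2, 0.18 for Dcn, 0.18 for Tcf21, 0.14 for Pdgfra, 0.03 for Col3a1 and 0.02 for Postn. In the mild line the 8 ran from 0.04 for Postn to 0.32 for Col3a1. The summed signal of the fibroblast genes was 13.38 to 13.44 in the severe line, overlapped by that of the mild line, against 13.22 to 13.61 in the mild line and 13.07 to 13.31 in the wild type, with Postn at background. Their part in the results for Fzd2, Apcdd1, Nkd2, Wls and Prickle2 was not tested. Of the 6 heart muscle genes measured, Ryr2 and Pln fell in both lines and the summed signal was 16.09 to 16.33 over all arrays, so the labelled tissue had its defining markers. Of 4 skeletal muscle genes measured, Acta1 rose in both lines, with Myh1 and Myh4 at background. Ckm did not pass and leaned the other way, by -0.17 for the mild line and -0.27 for the severe line. The summed signal was 15.13 to 15.34 for the mild line, 14.93 to 15.13 for the severe line and 14.07 to 14.38 for the wild type. Of these genes, Acta1 alone raised the sum. Of 4 macrophage genes, Mrc1 alone fell in the mild line (-0.32). The others did not pass and were slightly higher there, by 0.18 for Adgre1, 0.10 for Csf1r and 0.06 for Cd163. Mrc1 was the brightest of these genes in the wild type, so it weighed most in the summed signal. That signal was 9.88 to 10.09 for the mild line, 9.92 to 10.03 for the severe line and 10.05 to 10.19 for the wild type. The part of the skeletal muscle and macrophage genes in the results for Wif1 and Kremen1 was not tested. None of the 6 endothelial and 4 epicardial genes passed in either line. No adipose gene passed. The 3 measured, Adipoq, Plin1 and Ucp1, had severe line differences of -0.41, -0.20 and -0.53 (adjusted p = 0.356, 0.340 and 0.555) and mild line differences of 0.10, -0.15 and 0.09, with Plin1 at background. Their summed signal was 7.69 to 8.05 for the severe line, 8.25 to 8.47 for the mild line and 7.98 to 9.07 for the wild type, and their part in the Wif1 result was not tested. All 4 lung genes were at background.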

How the data were processed

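RNA from 12 whole hearts was measured on 12 Illumina BeadChip arrays. The authors deposited raw bead summary intensity values per probe, and a table of log2 values that the authors had background corrected and quantile normalized. The submitters' processing notes name GenomeStudio and limma, with no version. Ranks within each array were the same in both (rank correlation of 1).

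Here the raw intensities were background corrected with normexp (offset 50), since the detection p-values that neqc needs were not in the files used, quantile normalized and transformed to log2 in R 4.3.3 with limma 3.58.1. Of 45281 probe IDs, 34885 had 1 symbol, 18 several and 10378 none, from the platform annotation, which can be old. IDs that share the same value on every array were merged into 30854 features, and 6 lines without an ID, in 3 arrays, were left out. Group means of wild type (6), mild line (3) and severe line (3) arrays were fitted with lmFit and eBayes, with Benjamini-Hochberg adjustment over all features, so p-values measure the spread between hearts. The procedure was tested on simulated data. Precision is limited by the number of arrays.

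Members and gene lists were chosen with earlier results of these data known. Values per array are given for members past an adjusted p of 0.05 in any comparison, levels and changes for every member by its brightest feature, and, of further pathway genes, those past that threshold. Ryk, Ror2, Wnt5a, Axin2, Ctnnb1, Gsk3b, Frzb and Tcf7l1 were shown by array after their values were seen. Alternatives changed the background correction, scaling, features, controls, variances, samples and threshold. Which arrays shared a chip is not given in the sources used here, so chip and group cannot be told apart. Replicate numbers were not taken to pair hearts, since correlations of same-numbered hearts were -0.36 to 0.097.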

Additional observations from a re-analysis of the deposited data

Results flagged for a closer look

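For 52 features, the 47 of the members and the 5 further ones that passed the test, it was asked whether the highest or lowest of the 6 wild type arrays stood apart, that is, whether its gap to the next array exceeded 0.625 of the whole range. Chance gives this in about 1 of 20 groups, and 5 features had it. Ror2 was 6.93 in replicate 3 of the severe line's littermates and 6.63 to 6.71 in the others, a gap of 0.754 of the range. Sfrp1 was 7.98 in replicate 1 of the same littermates and 7.56 to 7.66 in the others (0.758). Sfrp5, at the background level, was 5.96 in replicate 2 of these littermates and 6.27 to 6.39 in the others (0.736). Among the littermates of the mild line, the brighter feature of Tcf7l2 was 6.55 in replicate 3, against 6.67 to 6.73 (0.645), and Dact1, at the background level, was 6.54 in replicate 1, against 6.13 to 6.28 (0.632). None of these 5 features passed the test in either line.

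Dkk3 differed between the lines by -0.97 on the log2 scale (mild minus severe) in the direct comparison with limma (adjusted p = 1.3e-04, at most 0.0109 over 23 alternatives), with all 3 mild line arrays below all 3 severe line arrays.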

How the results depend on the processing

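No single-feature value that passed the test changed direction under any alternative. Of the member counts in the mild line (1), 0 remained with a background offset of 16, at an adjusted p under 0.01 or by the threshold of the study, and leaving out 1 array gave 0 to 1. In the severe line (3), the count was 1 with an offset of 16, with median scaling, against own littermates, with the replicate block, in a fit of that line and the wild type alone, and at an adjusted p under 0.01. It was 0 by the threshold of the study and 5 with features above the median signal or at an adjusted p under 0.1, and leaving out 1 array gave 1 to 3. With every probe ID kept it was 6, but there probe IDs and not features are counted, and Ryk has 2 IDs. The 1 feature called with the replicate block was Lrp6, which the unblocked fit did not call, and Wif1, Fzd2 and Apcdd1 were lost. The block pairs replicate numbers that the labels share but do not explain, and 1 of 6 transgenic hearts (mild line replicate 1) correlated best with the littermate of its own number. Between the lines the count stayed at 0 under every alternative run, and between the littermates it was 0 at an adjusted p under 0.1 too. Of further pathway features, 2 passed in the mild line in the report and 2 to 2 with 1 array left out. With every probe ID kept, 4 probe IDs passed there, and the Dkk3 feature alone has 3 IDs. In the severe line (4) the count was 2 with an offset of 16, median scaling or the replicate block, and leaving out 1 array gave 1 to 5. With every probe ID kept, 7 probe IDs passed there, again a count of IDs and not of features. Over all features, median scaling turned 539 higher and 480 lower in the severe line into 270 and 857, and 184 higher and 238 lower between the lines into 234 and 112. The member median in the severe line was then 0.03. Many members lie near background, where differences are compressed, and 3 hearts a line limit what could be detected.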
